A study of Mus musculus with 6 samples.

Results

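The genes described here are 7 immediate-early and 70-kDa heat shock protein (HSP70) genes of mouse bone marrow (BM) cells, chosen by name. They are the AP-1 subunits *Fos*, *Fosb* and *Jun*, the phosphatase gene *Dusp2*, and the HSP70 genes *Hspa1a*, *Hspa1b* and *Hspa2*. All 7 were found among the 621 genes of the deposited expression table. The mRNA-seq libraries came from BM cells of the femurs and tibias of *Phc2* knockout (KO) mice and wild-type (WT) mice at 8 weeks of age on a C57BL/6 background, both bred from *Phc2*+/- parents, with 3 libraries per genotype. The KO libraries are replicates 4, 8 and 9, and the WT libraries are replicates 1, 3 and 7. The product of *Phc2* belongs to Polycomb repressive complex 1, which represses transcription through histone H2A ubiquitylation. The KO samples are knockouts by title, source and the study's text, but their genotype field reads *Phc2*+/- (heterozygote). The genotypes could not be checked on *Phc2* mRNA, which was not analysed here. No treatment is given for either genotype, and whether the libraries came from different mice is not stated in the sources.

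AP-1 is a dimer of a Fos-family and a Jun-family protein that binds DNA and activates transcription. Its genes are transcribed within minutes of a growth factor, cytokine or stress signal without new protein synthesis, hence the name immediate-early, and their mRNAs decay quickly. HSP70 proteins are ATP-driven chaperones that bind unfolded proteins. *Hspa1a* and *Hspa1b* are the stress-inducible genes of this family and are switched on by heat shock factor 1, whereas *Hspa2* is best known for its role in male germ cells. Both the AP-1 genes and the inducible HSP70 genes are known to respond to tissue handling and cell isolation as well as to signals in the animal. The questions asked of the data were whether KO and WT BM cells differed in these genes, and whether the AP-1 and HSP70 genes ranked the 6 libraries alike.

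The libraries did not separate by genotype in any of the 7 genes. Levels are in FPKM, the fragments counted on a gene, scaled for exon length and library size. By the deposited normalized log2 values, each gene of the table reached a 2-fold difference for 1 or more of the 9 KO-WT library pairings, so the table is a selection made on these same libraries and p-values from it are not independent evidence. *Xist*, the noncoding RNA of the inactive X chromosome in female cells, was above 1 FPKM in KO replicate 4 and WT replicates 1 and 3, at 74.6, 113 and 98.2 FPKM. It was at most 0.0192 FPKM in KO replicates 8 and 9 and in WT replicate 7. This division crosses the genotypes, and the sex of the mice is not in the labels used here. It also follows the replicate numbers, with high *Xist* in replicates 1, 3 and 4 and low *Xist* in replicates 7, 8 and 9. What these numbers stand for is not stated. Sex and anything that goes with the replicate numbers cannot be told apart here. Of 16 listed osteoblast markers the table held 12. All 12 were lower in each library with *Xist* below 1 FPKM than in each library with *Xist* above it, against 28.2% of all genes. Their summed level was 144, 182 and 137 FPKM in KO replicates 8 and 9 and WT replicate 7, against 755, 1552 and 973 FPKM in KO replicate 4 and WT replicates 1 and 3. None of the markers was at 0. BM identity was checked on erythroid and B-cell precursor markers. The 4 erythroid markers in the table, with hemoglobin genes among them, summed to between 2157 and 2239 FPKM in KO and between 1630 and 2885 FPKM in WT. The 11 B-cell precursor markers summed to between 548 and 727 FPKM in KO and between 477 and 1356 FPKM in WT.

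*Fos*, the AP-1 subunit gene with the highest level of the members, lies on chromosome 12 of GRCm38 (the assembly that mm10 names) from 85473890 to 85477274. *Jun*, whose product pairs with Fos and can also pair with itself, lies on chromosome 4 from 95049036 to 95052222. The bases before their starts are shown as a description. A link between these sequences and the order of the libraries was not tested. The sequences are the 250 bases upstream of the RefSeq start on GRCm38.p6, at chr12:85473640-85473889 on the plus strand for *Fos* and chr4:95052223-95052472 on the minus strand for *Jun*. Capitals mark TGACG, the core of a cyclic AMP response element, and TATAAA in *Fos*, and TGACATCA, known as a site through which AP-1 acts on *Jun* itself, and CCAAT in *Jun*.
Fos: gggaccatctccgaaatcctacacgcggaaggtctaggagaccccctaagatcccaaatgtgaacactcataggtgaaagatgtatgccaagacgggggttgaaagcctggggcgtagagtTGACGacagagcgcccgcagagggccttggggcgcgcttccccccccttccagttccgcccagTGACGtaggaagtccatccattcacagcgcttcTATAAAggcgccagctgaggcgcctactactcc
Jun: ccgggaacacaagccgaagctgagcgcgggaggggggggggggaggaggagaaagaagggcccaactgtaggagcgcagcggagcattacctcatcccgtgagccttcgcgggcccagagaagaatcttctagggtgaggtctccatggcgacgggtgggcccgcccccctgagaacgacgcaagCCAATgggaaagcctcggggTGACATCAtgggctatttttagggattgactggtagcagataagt
*Fos* held TGACG at 2 places, from 129 and from 66 bases before the start, and TATAAA from 33 bases before it. *Jun* held TGACATCA from 45 and CCAAT from 65 bases before the start, and also GAANNTTC from 128. On either strand, TGACG was found in 17.8% of the 32851 windows of 250 bases in the reference table, TGACATCA in 2.93%, TATAAA in 12.4% and CCAAT in 33.8%. Neither TGACGTCA, which contains TGACG and was found in 1.55% of windows, nor the AP-1 motif TGANTCA, in 6.75%, was found in the windows of *Fos*, *Jun*, *Hspa1a* or *Hspa1b*. The RefSeq windows of *Fosb* and *Hspa2* overlap the gene spans given here and were not compared. A match is a description of the letters and not a site that was tested here.

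*Fos* levels were 101, 204 and 251 FPKM in KO replicates 4, 8 and 9, against 64.0, 88.3 and 233 FPKM in WT replicates 1, 3 and 7. The 3 high libraries were thus KO replicates 8 and 9 and WT replicate 7, and the genotypes overlapped. KO libraries averaged 185 ± 76.4 FPKM, against 128 ± 91.2 FPKM for WT libraries (± SD of 3 libraries). On log2(FPKM + 1), the scale of each fold change below, *Fos* had a log2 fold change of KO over WT of 0.65 (95% interval -0.53 to 1.83, adjusted p = 0.598 from limma over the 621 genes). *Fosb*, encoding a further Fos-family subunit, lies on chromosome 7 from 19302696 to 19310118. It had levels of 1.84, 5.20 and 8.28 FPKM in KO replicates 4, 8 and 9, against 1.23, 0.726 and 2.50 FPKM in the WT replicates. KO replicate 4 lay below WT replicate 7, so the genotypes overlapped by this library pair alone. *Fosb* had the largest log2 fold change of the members, 1.20 (95% interval 0.16 to 2.24, limma unadjusted p = 0.0255), but it did not pass the adjustment (adjusted p = 0.598 from limma). *Jun* was at 14.6, 43.3 and 47.2 FPKM in the KO replicates, against 19.4, 20.1 and 24.5 FPKM in the WT replicates. KO replicate 4 was the lowest of the 6 libraries and KO replicates 8 and 9 were the highest. The log2 fold change of *Jun* was 0.53 (95% interval -0.54 to 1.61, adjusted p = 0.598 from limma).

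**Figure D1:**
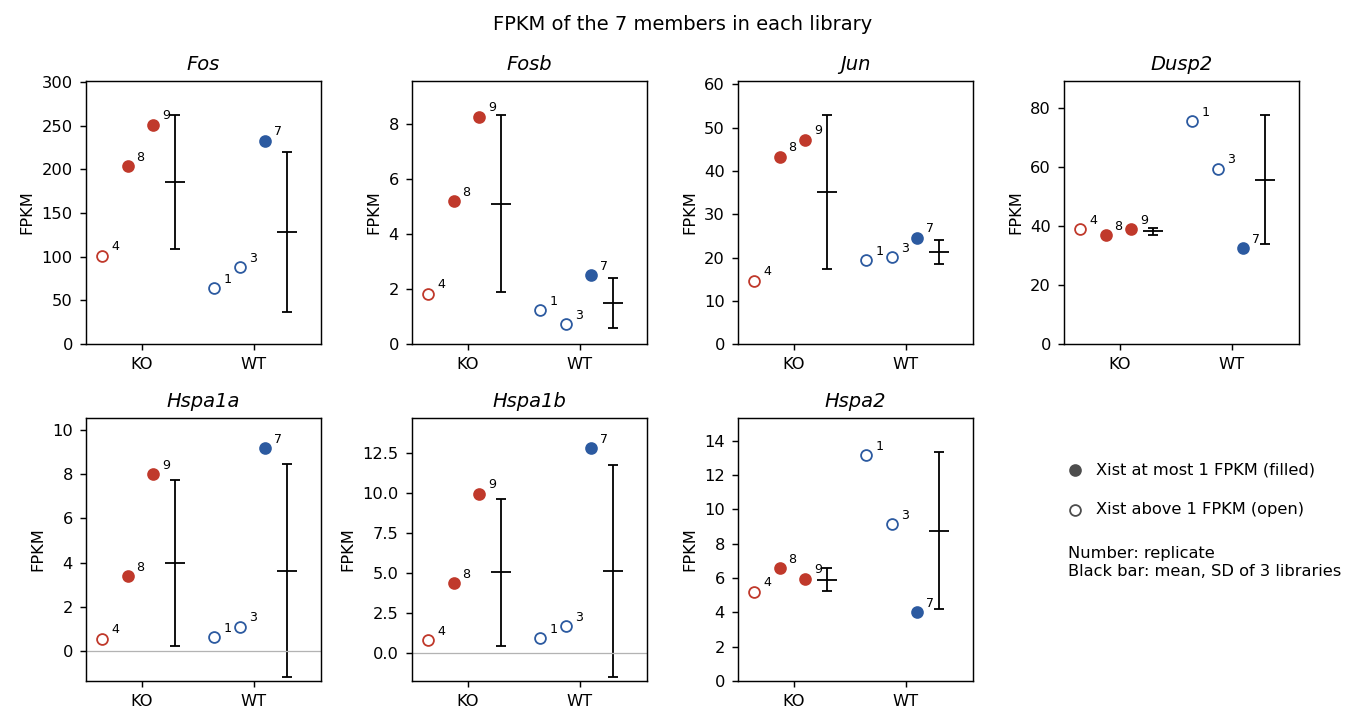
FPKM of each of the 7 members in the KO and WT libraries, 1 point per library with its replicate number, filled where *Xist* was at most 1 FPKM and open where it was above, and the black bar gives the mean and SD of 3 libraries. In *Fos*, *Fosb*, *Jun*, *Hspa1a* and *Hspa1b* the filled points of both genotypes lie above the open points, whereas in *Dusp2* and *Hspa2* WT replicates 1 and 3 are the highest.

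*Hspa1a* and *Hspa1b* lie side by side on chromosome 17, from 34969359 to 34972156 and from 34956429 to 34959238, and are near-identical copies. Their upstream sequences are shown because the copies also gave near-identical profiles over the libraries. They are the 250 bases before the RefSeq start on GRCm38.p6, at chr17:34972157-34972406 for *Hspa1a* and chr17:34959239-34959488 for *Hspa1b*, both on the minus strand. Capitals mark GAANNTTC, a core arrangement of the heat shock element.
Hspa1a: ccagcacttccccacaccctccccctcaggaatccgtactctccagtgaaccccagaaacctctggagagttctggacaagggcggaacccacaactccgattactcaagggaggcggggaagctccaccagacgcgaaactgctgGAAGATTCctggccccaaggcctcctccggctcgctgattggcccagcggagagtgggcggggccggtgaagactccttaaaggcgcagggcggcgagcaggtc
Hspa1b: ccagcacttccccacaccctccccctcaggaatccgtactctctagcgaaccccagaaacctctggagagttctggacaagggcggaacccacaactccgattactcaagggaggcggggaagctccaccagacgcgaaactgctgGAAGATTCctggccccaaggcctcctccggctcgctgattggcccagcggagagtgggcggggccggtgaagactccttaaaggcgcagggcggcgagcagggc
The sequences differed at 3 of 250 bases, C44T, T47C and T249G, with the base of *Hspa1a* before and that of *Hspa1b* after the position, counted from 1 at the 5′ end. Both held GAANNTTC from 104 bases before the start and CCAAT on the opposite strand from 67. GAANNTTC was found in 6.69% of the 32851 windows. The near-identity extends into the transcripts. Of the 2868 stretches of 100 bases in the *Hspa1a* transcript of GENCODE M21, 1350 (47.1%) occurred unchanged in the *Hspa1b* transcript, and 49.9% of those of *Hspa1b* occurred in *Hspa1a*. The reads were 100 bases long, and no source used here says how fragments that match both copies were assigned, so the split between the copies is uncertain. No stretch of *Hspa2* was shared with either.

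*Hspa1a* levels were 0.554, 3.38 and 8.02 FPKM in KO replicates 4, 8 and 9, against 0.606, 1.10 and 9.19 FPKM in WT replicates 1, 3 and 7. *Hspa1b* was at 0.786, 4.34 and 9.95 FPKM in the KO replicates, against 0.915, 1.64 and 12.8 FPKM in the WT replicates. Each genotype thus held low and high libraries, and KO replicate 4 was the lowest and WT replicate 7 the highest for both copies. The highest library was 16.6-fold above the lowest for *Hspa1a* and 16.3-fold for *Hspa1b*, while the ratio of *Hspa1b* to *Hspa1a* stayed between 1.24 and 1.51 in the 6 libraries. Neither copy differed between the genotypes beyond the spread within them. The log2 fold change was 0.28 for *Hspa1a* (95% interval -1.05 to 1.61, adjusted p = 0.764 from limma) and 0.19 for *Hspa1b* (95% interval -1.18 to 1.57, adjusted p = 0.847 from limma). The direction rested on single libraries. Without WT replicate 1 the log2 fold change was -0.23 for *Hspa1a* and -0.36 for *Hspa1b*. Omitting WT replicate 3 gave -0.04 and -0.13, and omitting KO replicate 9 gave -0.32 and -0.42, in the same order of genes. Both copies were under 1 FPKM in KO replicate 4 and WT replicate 1, as was *Fosb* in WT replicate 3, and at such levels the added 1 understates a change. With 0.1 added, the log2 fold change of *Fosb* was 1.64.

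*Hspa2* and *Dusp2* showed another pattern. *Hspa2*, on chromosome 12 from 76403812 to 76406938, was at 5.20, 6.56 and 5.96 FPKM in the KO replicates, against 13.1, 9.14 and 4.02 FPKM in the WT replicates. WT replicates 1 and 3 were the highest and WT replicate 7 the lowest, with the 3 KO libraries between them. *Dusp2*, a nuclear phosphatase that inactivates mitogen-activated protein kinases and is expressed mainly in hematopoietic cells, lies on chromosome 2 from 127336159 to 127338377. *Dusp2* levels were 38.9, 36.9 and 39.0 FPKM in the KO replicates, against 75.6, 59.5 and 32.5 FPKM in the WT replicates. The SD of *Dusp2* was 1.21 FPKM among the KO libraries and 21.8 FPKM among the WT libraries. The log2 fold change was -0.38 for *Hspa2* (95% interval -1.40 to 0.64, adjusted p = 0.610 from limma) and -0.45 for *Dusp2* (95% interval -1.48 to 0.58, adjusted p = 0.598 from limma). Without WT replicate 1 these were -0.051 and -0.20, and without WT replicate 7 they were -0.80 and -0.79.

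**Figure D2:**
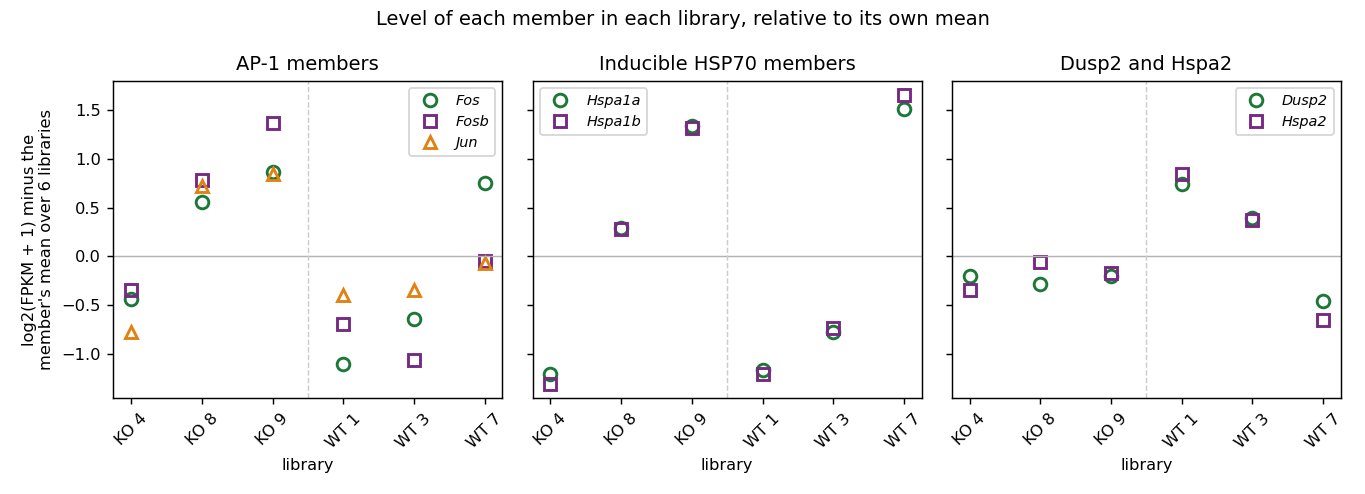
log2(FPKM + 1) of each member in each library after subtraction of its mean over the 6 libraries, with AP-1 members, *Hspa1a* and *Hspa1b*, and *Dusp2* and *Hspa2* in separate panels and KO left of WT. *Hspa1a* and *Hspa1b* nearly coincide, the AP-1 members share their high libraries in KO replicates 8 and 9, and *Dusp2* and *Hspa2* are highest in WT replicate 1.

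No member of the 7 reached significance in limma (adjusted p threshold of 0.05), and of all 621 genes 0% were called higher and 0% lower in KO. At an unadjusted p under 0.05 from limma, 1 member, *Fosb*, was higher, against 8 genes higher (1.29%) and 6 lower (0.966%) in the whole table. For 5 of the members the mean log2(FPKM + 1) was higher in KO, against 38.2% of all genes, and the median log2 fold change was 0.28, against -0.35 for all genes. Among these 5 are *Hspa1a* and *Hspa1b*, which are not separate measures. The genotypes did not overlap in 0 of the 7 members, against 7.25% of all genes. WT replicate 7 bore on this count more than the other libraries did. Without it, *Fos* and *Fosb* were higher and *Dusp2* and *Hspa2* lower in each KO library than in each remaining WT library, which makes 4 of the 7 members, but 66.8% of all genes then did not overlap. Without KO replicate 4, *Fosb* and *Jun* were higher, against 23.5% of all genes. Leaving out any of the other 4 libraries gave 0 members, against 18.8% of all genes when KO replicate 8 was omitted, 10.1% for KO replicate 9, 10.1% for WT replicate 1 and 10.3% for WT replicate 3. These counts were chosen after seeing the data.

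The other genes of both pathways were taken from lists drawn up with earlier results of these data known. Of 50 other immediate-early genes, 6 were in the table, and none passed the limma test. All 6 had a higher mean in KO, against 38.2% of all genes. Their median log2 fold change was 0.57, against -0.35 for all genes. The median of the 6 genes was 0.28 without KO replicate 9 and 0.29 without WT replicate 1. It was 0.87 without KO replicate 4 and 0.90 without WT replicate 7. *Dusp1*, a phosphatase that limits the kinase signals that induce *Fos*, was at 47.0, 69.6 and 124 FPKM in the KO replicates, against 24.2, 41.5 and 104 FPKM in the WT replicates. *Cxcl2*, encoding a neutrophil chemokine, was at 1.59, 5.93 and 10.4 FPKM in the KO replicates, against 0.480, 1.10 and 9.08 FPKM in the WT replicates. Both repeated the order of libraries seen in *Fos*, with KO replicate 9 the highest and WT replicate 1 the lowest. *Ptgs2*, encoding the prostaglandin synthase COX-2, ranged from 0.756 to 3.87 FPKM in KO and from 0.878 to 2.80 FPKM in WT. *Rgs1*, a regulator of G protein signaling, ranged from 1.48 to 4.58 FPKM in KO and from 0.894 to 3.36 FPKM in WT. *Plk3*, a stress-responsive kinase gene, ranged from 7.37 to 12.0 FPKM in KO and from 4.28 to 9.23 FPKM in WT. *Socs3*, a feedback inhibitor of cytokine signaling, ranged from 8.96 to 16.3 FPKM in KO and from 5.02 to 11.8 FPKM in WT. The genotypes overlapped in each of these 6 genes.

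Of 40 other heat shock and chaperone genes, 3 were in the table, and none passed the limma test. *Hmox1*, encoding the heme-degrading enzyme heme oxygenase, which stress also induces, was at 122, 89.1 and 104 FPKM in the KO replicates, against 55.7, 68.9 and 74.0 FPKM in the WT replicates. It was the 1 gene of both lists whose KO libraries all lay above the WT libraries, against 7.25% of all genes that did not overlap in either direction. Its log2 fold change was 0.65 (95% interval -0.36 to 1.66, adjusted p = 0.598 from limma). *Dnajb4*, a cochaperone of HSP70, was highest in KO replicate 8 and WT replicate 3, at 11.7 and 10.4 FPKM, and between 5.16 and 5.80 FPKM in the other 4 libraries. *Serpinh1*, a chaperone dedicated to collagen, was at 17.4, 6.15 and 6.86 FPKM in the KO replicates, against 36.6, 28.0 and 6.83 FPKM in the WT replicates. Its high libraries were those with *Xist* above 1 FPKM and high osteoblast markers.

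**Figure D3:**
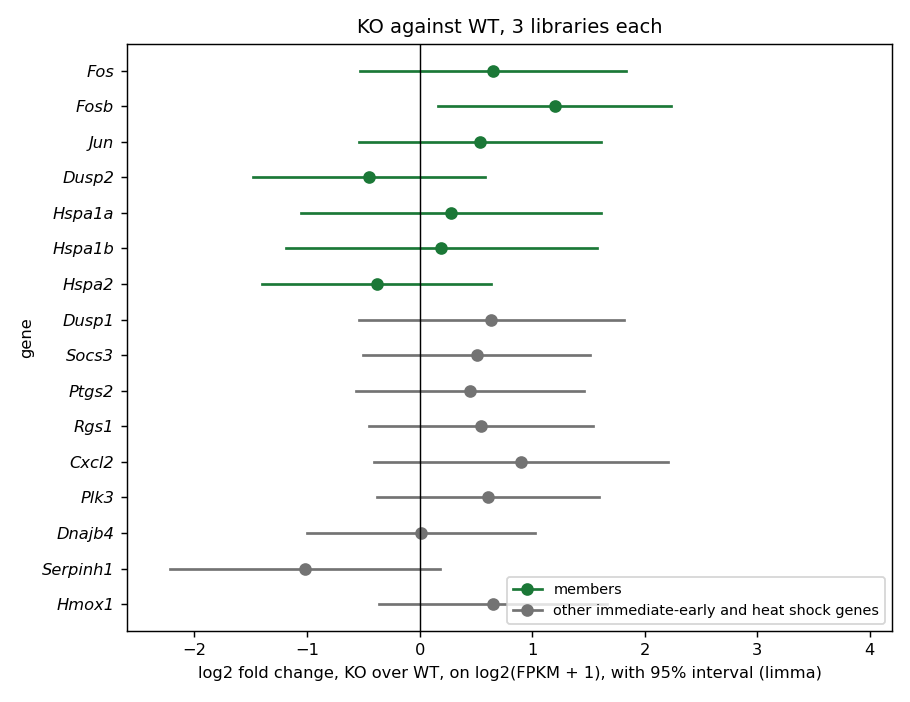
Log2 fold change of KO over WT on log2(FPKM + 1) with its 95% interval from limma for the 7 members and the 9 other immediate-early and heat shock genes of the table (3 libraries per genotype). The interval of *Fosb* alone, from 0.16 to 2.24, does not include 0 before adjustment.

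The AP-1 genes and the inducible HSP70 genes ranked the libraries largely alike, whereas *Hspa2* did not share this ranking. For a pair of genes, the library pairs that both genes order the same way were counted, of 15 pairs in all. *Hspa1a* and *Hspa1b* ordered all 15 alike. *Fos* and *Hspa1a* ordered 12 of 15 alike, *Jun* and *Hspa1a* 13, and *Fosb* and *Hspa1a* 10, and the counts with *Hspa1b* were the same. Among the AP-1 genes themselves, *Fos* and *Fosb* ordered 13 alike, *Fos* and *Jun* 12, and *Fosb* and *Jun* 12, so *Jun* was as close to *Hspa1a* as *Fos* was to *Fosb*. *Hspa2* ordered 3 pairs as *Fos* did, 5 as *Fosb* did and 6 as *Jun* did. *Hspa2* and *Dusp2* ordered 13 pairs alike. Since the libraries fall into sets that cross the genotypes, and each set holds 3 libraries, no pooled correlation is given and the relation was not tested.

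*Fos* and *Hspa1a* ordered 6 of 6 library pairs within a genotype alike, and 6 of 9 KO-WT library pairs. *Jun* and *Hspa1a* also agreed in 6 of 6 pairs within a genotype, and *Fosb* and *Hspa1a* in 5 of 6. Most pairs within a genotype join a library with *Xist* at most 1 FPKM and a library above it. The exceptions are KO replicates 8 and 9 and WT replicates 1 and 3. The counts within a genotype are thus not separate from the division by *Xist*. The agreement between the groups of genes lay in which libraries were high, not in the order among them. All 9 pairs of a library with *Xist* at most 1 FPKM and a library above it were ordered alike by *Fos*, *Fosb*, *Jun*, *Hspa1a* and *Hspa1b*. Within these sets of 3 libraries, *Fos* and *Hspa1a* ordered 3 of 6 pairs alike, *Jun* and *Hspa1a* 4, and *Fosb* and *Hspa1a* 1. The AP-1 genes agreed little better among themselves there. *Fos* and *Fosb* ordered 4 of these 6 pairs alike, *Fos* and *Jun* 3, and *Fosb* and *Jun* 3. WT replicate 7, the library with the highest *Hspa1a* and *Hspa1b*, ranked behind KO replicate 9 for *Fos* and behind KO replicates 8 and 9 for *Fosb* and *Jun*. KO replicate 4, the lowest library for *Hspa1a*, *Hspa1b* and *Jun*, was above WT replicates 1 and 3 for *Fos* and *Fosb*.

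**Figure D4:**
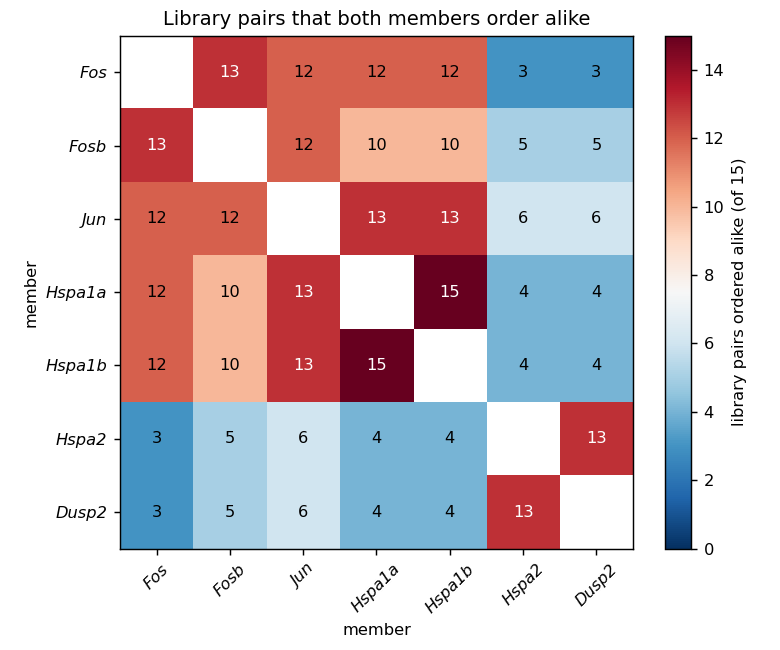
Number of the 15 library pairs that each pair of members orders alike by FPKM. *Fos*, *Fosb*, *Jun*, *Hspa1a* and *Hspa1b* share between 10 and 15 pairs with one another, and *Hspa2* and *Dusp2* share 13 with each other but between 3 and 6 with the rest.

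The division of the libraries by *Xist*, made after seeing the data, separated 5 of the 7 members without overlap, and each was higher where *Xist* was low. The 5 include *Hspa1a* and *Hspa1b*, which are not separate measures. *Fos* averaged 229 FPKM in KO replicates 8 and 9 and WT replicate 7, against 84.5 FPKM in KO replicate 4 and WT replicates 1 and 3. *Fosb* averaged 5.33 against 1.27 FPKM, *Jun* 38.3 against 18.1 FPKM, *Hspa1a* 6.86 against 0.753 FPKM and *Hspa1b* 9.02 against 1.11 FPKM in these sets. In the whole table, 9.5% of genes were higher without overlap in the libraries with low *Xist* and 28.2% were lower. Of the 6 other immediate-early genes, 5 were higher in the same way, the exception being *Socs3*. None of the 3 other heat shock genes was higher, and *Serpinh1* was lower. Within the libraries with *Xist* at most 1 FPKM, the difference of KO minus WT on log2(FPKM + 1) was -0.04 for *Fos* and 1.12 for *Fosb*, and within those above 1 FPKM it was 0.43 and 0.53. *Hspa1a* differed by -0.70 where *Xist* was low and -0.24 where it was high, and *Hspa1b* by -0.85 and -0.33. Both signs are opposite to the log2 fold change over all libraries. Each difference rests on a single library of a genotype, KO replicate 4 where *Xist* was high and WT replicate 7 where it was low. Where *Xist* was high, *Hspa1a* was at 0.554 FPKM in KO replicate 4, against 0.606 and 1.10 FPKM in WT replicates 1 and 3, which are low levels. For *Hspa1b* the mean in FPKM was 5.02 in KO and 5.12 in WT, so its positive value holds on the log2 scale alone. *Jun*, *Dusp2* and *Hspa2* each had opposite directions in these sets without overlap, as did 34.6% of all genes, at 0.85, 0.22 and 0.53 where *Xist* was low and -0.41, -0.77 and -0.95 where it was high.

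Markers of other cell types moved with these patterns. *Fos* ordered 2 of 15 library pairs in the same way as the summed osteoblast markers, and *Hspa1a* 3 of 15. Most pairs were thus in reverse order. For the endothelial markers the counts were 2 for *Fos*, 0 for *Fosb*, 3 for *Jun* and 5 for *Hspa1a*. For the reticular cell markers they were 4, 6, 3 and 1 in the same order of genes. Monocyte, macrophage and dendritic cell markers shared more of their order with the AP-1 genes than with *Hspa1a*. They ordered 12 of 15 pairs as *Fos* did, 12 as *Fosb* and 11 as *Jun*, against 9 as *Hspa1a*. The 4 of these markers in the table, from 18 listed, are the MHC class II genes *H2-Aa*, *H2-Ab1* and *H2-Eb1* and their chaperone gene *Cd74*, which B cells also express. All 4 were higher in each KO library than in each WT library, against 7.25% of all genes without overlap, and they summed to 1645, 1511 and 1847 FPKM in KO replicates 4, 8 and 9, against 722, 882 and 1431 FPKM in WT replicates 1, 3 and 7. *Fos* also ordered 12 pairs as the T-cell and NK-cell markers did. Of 16 listed endothelial markers the table held 8, and all 8 were lower without overlap where *Xist* was low, against 28.2% of all genes. Their summed level was 10.2, 9.55 and 11.4 FPKM in KO replicates 8 and 9 and WT replicate 7, against 26.1, 43.0 and 44.2 FPKM in KO replicate 4 and WT replicates 1 and 3. The part of these cell types in the levels of the AP-1 and HSP70 genes was not tested. *Hspa2* ordered all 15 library pairs as the summed level of the 11 B-cell precursor markers did, and 14 as the mature B-cell and plasma cell markers and 12 as the osteoblast markers did. *Dusp2* ordered 14 pairs as the osteoblast markers did, 13 as the B-cell precursor markers and 13 as the granulocyte markers. The B-cell precursor level was 548, 727 and 614 FPKM in KO replicates 4, 8 and 9, against 1356, 873 and 477 FPKM in WT replicates 1, 3 and 7, and none of the markers was at 0. How many of all genes order the library pairs as these markers do was not determined, so the counts are not shown to be particular to *Hspa2* or *Dusp2*. The part of any of these cell types in *Hspa2* and *Dusp2* was not tested either. In RNA of whole BM, fewer cells of a type and less RNA per cell cannot be told apart.

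**Figure D5:**
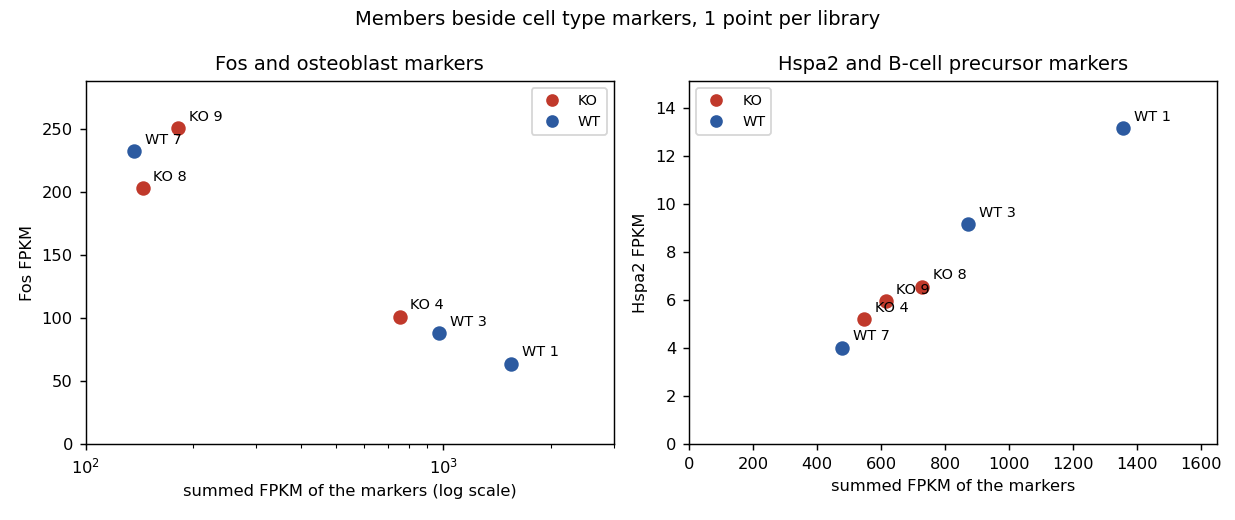
*Fos* FPKM against the summed FPKM of 12 osteoblast markers (left, log scale on the horizontal axis) and *Hspa2* FPKM against the summed FPKM of 11 B-cell precursor markers (right), 1 point per library. *Fos* is highest in the 3 libraries with the lowest osteoblast markers, and *Hspa2* follows the order of the B-cell precursor markers in all 6 libraries.

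The genes whose profile lay closest to *Fos* and to *Hspa2*, the AP-1 and HSP70 members with the highest mean level, were sought among 551 genes of the table. Likeness was the root mean square difference of log2(FPKM + 1) over the 6 libraries after each gene's mean was subtracted. Closest to *Fos* was *Osm*, encoding the cytokine oncostatin M, at a difference of 0.11. *Osm* levels were 18.9, 40.5 and 55.3 FPKM in KO replicates 4, 8 and 9, against 12.0, 17.1 and 39.8 FPKM in WT replicates 1, 3 and 7. *Dusp1* followed at 0.19, the interferon-inducible GTPase gene *Gvin1* at 0.20, *Rgs1* at 0.22 and *Il1r2*, a decoy receptor of interleukin-1, at 0.25. Closest to *Hspa2* was *Cd79b*, which encodes a signaling part of the B-cell antigen receptor, at 0.05. *Cd79b* was at 228, 287 and 253 FPKM in the KO replicates, against 486, 364 and 186 FPKM in the WT replicates. The histone deacetylase gene *Hdac9* followed at 0.06, *Gpr12*, an orphan G protein-coupled receptor gene, at 0.07, *Glcci1* at 0.08 and *Snn* at 0.09. For *Hspa1a*, chosen after its values were seen, *Hspa1b* was closest at 0.07 and *Cxcl2* next at 0.34. *Gvin1* was between 0.535 and 2.94 FPKM and *Gpr12* between 0.721 and 3.74 FPKM. At such levels the added 1 understates a change, which bears on how close they appear. These are likenesses over 6 libraries in a table selected for variable genes.

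The spread over all 6 libraries differed among the members. The SD of log2(FPKM + 1) was 1.28 for *Hspa1b* and 1.23 for *Hspa1a*, and 22 and 29 of the 621 genes had a larger one. It was 0.92 for *Fosb*, 0.83 for *Fos* and 0.65 for *Jun*, with 52, 85 and 173 genes above them. *Hspa2* at 0.53 and *Dusp2* at 0.46 were ordinary for this table, with 317 and 446 genes above them. By the deposited normalized log2 values, *Dusp2* and *Hspa2* each entered the table through 1 of 9 KO-WT library pairs, in which KO was lower. *Hspa1a* and *Hspa1b* had a fold of at least 2 upward in 4 pairs and downward in 2, *Fos* upward in 4 and downward in 1, *Jun* upward in 4 and *Fosb* upward in 5. *Fosb* and *Jun* were thus the AP-1 members without a downward pair at a fold of at least 2. Smaller differences in that direction did occur. KO replicate 4 was below each WT library for *Jun* and below WT replicate 7 for *Fosb*.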

How the data were processed

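The authors prepared poly(A)-selected RNA libraries from BM cells and sequenced them as paired reads of 100 bases. As given in the study's methods and in the submitters' processing notes, the authors aligned reads to mm10 with HISAT2 version 2.0.5 and estimated FPKM per gene with StringTie version 1.3.3b, and the deposited FPKM were used here. The authors also deposited log2 values per library after a further normalization step, not given in the sources used here. Fold columns and enrichment tables of the authors, which hold their own comparisons, were not used. Library depth was not determined, so no counting interval is given.

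FPKM were transformed to log2(FPKM + 1). KO and WT were compared in R (version 4.3.3) by limma (version 3.58.1), letting the prior variance follow the mean level, on all 621 genes (each above 0 in at least 3 libraries), with Benjamini-Hochberg adjustment and a threshold of 0.05. The prior had a median of 17.8 degrees of freedom, against 4 residual ones. P-values measure only the spread between these libraries, which may be technical. The library order was described by counts, with no test. Named genes are the 7 members, all genes of the immediate-early and heat shock lists in the table, *Xist*, and the 5 genes closest in profile to *Fos* and *Hspa2* with a mean of at least 1 FPKM and no predicted-gene symbol. Of 12 gene lists, the cell type marker lists are also given as summed levels. The members and lists were chosen with earlier results of these data known. Sequences are from RefSeq (GRCm38.p6, all 7 members matched), transcripts from GENCODE M21. Other steps used Python version 3.11.15 and pandas version 2.3.3. The alternatives tried were other pseudocounts, filters, scalings and variance priors, a stricter threshold, a term for *Xist* and leaving out each library.

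The marker lists not given as sums in the results were also summed per library. The 4 reticular cell markers summed to between 29.9 and 70.7 FPKM in KO and between 26.7 and 68.8 FPKM in WT, the 10 T-cell and NK-cell markers to between 81.8 and 152 FPKM in KO and between 43.3 and 97.1 FPKM in WT, and the 7 mature B-cell and plasma cell markers to between 257 and 335 FPKM in KO and between 244 and 411 FPKM in WT. The 2 granulocyte markers summed to between 327 and 454 FPKM in KO and between 346 and 820 FPKM in WT, and the 3 megakaryocyte markers to between 11.2 and 44.7 FPKM in KO and between 28.2 and 40.4 FPKM in WT.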

Additional observations from a re-analysis of the deposited data

Results flagged for a closer look

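*Jun*, *Dusp2* and *Hspa2* differed between KO and WT in opposite directions in the libraries with *Xist* at most 1 FPKM and in those above it, with no overlap in either set. *Jun* differed by 0.85 on log2(FPKM + 1) in the libraries with low *Xist* and by -0.41 in those with high *Xist*, a gap of 1.26. *Dusp2* differed by 0.22 and -0.77 in the same sets, a gap of 0.99, and *Hspa2* by 0.53 and -0.95, a gap of 1.48. The gaps were not tested, each set holds 3 libraries, and 34.6% of the 621 genes showed such opposite directions. KO replicate 4 was the only KO library with high *Xist*, and WT replicate 7 the only WT library with low *Xist*.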

How the results depend on the processing

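The depth of the libraries was not determined, so the counting error of low levels is unknown. No paired analysis was possible because the KO and WT samples share no replicate number in the labels. In all 14 alternative fits, *Fos*, *Fosb* and *Jun* kept a higher mean and *Dusp2* and *Hspa2* a lower mean in KO. No member passed the adjusted threshold of limma in any of them. The 14 fits include the fit without a filter, which equals the main fit because all 621 genes passed the filter. Over these fits the log2 fold change ranged from 0.82 to 1.67 for *Fosb* (adjusted p between 0.104 and 0.950 from limma), 0.19 to 1.19 for *Fos*, 0.22 to 1.05 for *Jun*, -0.79 to -0.20 for *Dusp2* and -0.80 to -0.051 for *Hspa2*. The lowest values of *Fos* and *Jun* came with the *Xist* term, and those of *Dusp2* and *Hspa2* nearest 0 without WT replicate 1. Quantile normalization moved the median over all genes to -0.18 and scaling to the same median moved it to -0.22, against -0.35 as deposited, and the directions of the members were kept. With a term for *Xist* above 1 FPKM, *Hspa1a* reversed to -0.47, *Hspa1b* to -0.59 and *Dnajb4* to -0.015. Leaving out each library in turn, *Hspa1a* ranged from -0.32 to 1.10 (highest without WT replicate 7), *Hspa1b* from -0.42 to 1.07, and *Dnajb4*, and with it the median of the 3 other heat shock genes, from -0.33 to 0.28. For *Dnajb4*, omitting KO replicate 8 gave -0.33, WT replicate 1 -0.15 and WT replicate 7 -0.092. Omitting KO replicate 9 gave -0.32 for *Hspa1a* and -0.42 for *Hspa1b*, omitting WT replicate 1 gave -0.23 and -0.36, and omitting WT replicate 3 gave -0.037 and -0.13. The count of genes called by limma over the whole table was 0 or 1 when a library was left out, *Xist* without KO replicate 4 and *Atp6v0c-ps2* without KO replicate 9, which was chosen after its values were seen. At an unadjusted p under 0.05 from limma, 61 genes were higher and 191 lower without WT replicate 7, 11 and 33 without KO replicate 4, 22 and 4 with quantile normalization, 21 and 2 with libraries scaled to one median, and 20 and 10 with the *Xist* term, against 8 and 6 over all libraries. The members without overlap between KO and WT numbered 0 to 4, an alternative added after seeing the data. The AP-1 genes ordered 77.8% of library pairs as *Hspa1a* and *Hspa1b* did, and between 73.3% and 83.3% when a library was left out. The copies order the libraries identically and are not separate measures in this share. Pairs across the division by *Xist* are all ordered alike by these genes whichever library is left out, so the narrow range partly follows from that division. For *Hspa2* the share ordered as the AP-1 genes did was 31.1%, and between 20.0% and 40.0% when a library was left out. Under the other scalings the shares stayed between 77.8% and 82.2% for *Hspa1a* and *Hspa1b* and between 28.9% and 31.1% for *Hspa2*. The cause of these changes was not tested.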
